A study of Macaca fascicularis and Macaca mulatta with 24 samples.

Results

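The genes that encode the AMPA and kainate subunits of the ionotropic glutamate receptors were read in macaque cortex after an experimental stroke. The members were 9 genes, GRIA1 to GRIA4 for the AMPA subunits and GRIK1 to GRIK5 for the kainate subunits, and every non-control probe that an array file names by one of these symbols was taken. All 9, of 15501 gene symbols read from the array's annotations, had a probe, 13 of 20217 gene probes in all, 7 of AMPA genes and 6 of kainate genes. GRIA3 was read by 4 probes, GRIK1 by 2 and each other gene by 1.

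AMPA receptors carry most of the fast excitatory current at cortical synapses, and each is built from 4 subunits drawn from GRIA1 to GRIA4. The edited GRIA2 subunit makes the channel nearly impermeable to calcium, so the share of GRIA2 among the subunits sets how much calcium enters through AMPA receptors, and loss of GRIA2 after ischemia is a known subject of stroke research. Kainate receptors are built from GRIK1, GRIK2 and GRIK3, which form channels alone, together with GRIK4 and GRIK5, which bind kainate tightly but need one of the former to make a working channel, and they act on both sides of the synapse.

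All animals were cynomolgus macaques whose right middle cerebral artery was occluded (MCAO), so every group, placebo included, comes from a brain with a stroke and there was no sham group. Either placebo or TatNR2B9c at 2.6 mg/kg was given intravenously 5 min later. TatNR2B9c is a cell-penetrating peptide that carries the tail of the NMDA receptor subunit NR2B and is made to separate that receptor from the scaffold protein PSD-95. Flash-frozen biopsies came from the ischemic right cortex and from the non-ischemic left cortex, 1 h or 6 h after the occlusion. The 8 groups were placebo or TatNR2B9c, left or right, 1 h or 6 h, with 3 animals in each and 24 arrays in all. The age and sex of the animals are not given in the sources used here, nor whether animals with the same number at 1 h and 6 h were the same animal. A right and a left array of 1 treatment, time and number were read as 1 animal, which gives 12 right-left pairs.

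The probe sequences are shown because the probe, and not the whole transcript, is what each value measures, and because GRIA3 and GRIK1 have probes that did not move together. They are given 5′ to 3′ as the array files hold them, with coordinates on the rhesus macaque build rheMac2 from the same files. The files do not say whether a probe lies in an exon or a UTR. Capitals mark the longest run that a probe shares with another of the 13 probes, or the letters AATAAA in the probe GRIA3 P004771 and in GRIK5. Stretches of 30 bases are shown for GRIA1, GRIA2, GRIA3 P004771 and GRIK5, and the whole 60 bases for the others. The 4 AMPA genes came first.
GRIA1, chr6:150162551-150162610, plus strand: ttttaattcagTTGTTAGTgtgtcttagtg
GRIA2, chr5:149588475-149588534, plus strand: cactaTTGTTAGTctcttgattcataatga
GRIA3 P002218, chrX:121707893-121707952, plus strand: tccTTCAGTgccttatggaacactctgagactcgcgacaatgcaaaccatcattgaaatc
GRIA3 P002371, chrX:121709269-121709328, plus strand: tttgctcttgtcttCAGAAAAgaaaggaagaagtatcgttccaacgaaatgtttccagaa
GRIA3 P007390, chrX:121709456-121709515, plus strand: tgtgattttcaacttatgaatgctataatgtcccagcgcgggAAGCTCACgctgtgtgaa
GRIA3 P004771, chrX:121404583-121404642, plus strand: ctctgaagataaAATAAAaagatgaagctg
GRIA4, chr14:104585128-104585187, plus strand: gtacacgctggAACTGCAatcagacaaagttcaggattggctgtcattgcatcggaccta

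The kainate probes follow in the same form, with no coordinates in the files for GRIK5.
GRIK1 P011781, chr3:17103320-17103379, plus strand: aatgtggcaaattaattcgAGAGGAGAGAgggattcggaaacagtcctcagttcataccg
GRIK1 P012758, chr3:17120508-17120567, plus strand: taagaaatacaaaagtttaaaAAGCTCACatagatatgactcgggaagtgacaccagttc
GRIK2, chr4:98028342-98028401, plus strand: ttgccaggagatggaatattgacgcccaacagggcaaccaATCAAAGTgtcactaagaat
GRIK3, chr1:39668727-39668786, minus strand: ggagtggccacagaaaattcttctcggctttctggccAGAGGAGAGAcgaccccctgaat
GRIK4, chr14:119396206-119396265, plus strand: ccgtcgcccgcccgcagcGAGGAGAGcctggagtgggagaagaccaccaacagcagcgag
GRIK5: agcccctgttggAATAAAaaaaagaacaaa

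The longest run shared by any 2 of these probes was 10 bases, between GRIK1 P011781 and GRIK3, and the longest shared with any other probe of the array was 15 bases, in GRIA1. Of the GRIA3 probes, P002218, P002371 and P007390 lie within 1623 bases, and P004771 lies 303251 bases upstream of them. The 2 GRIK1 probes start 17188 bases apart. All probes but GRIA3 P004771 have a reading frame without a stop in the 60 bases. The letters AATAAA, searched on the probe strand, are in 2 of the 13 probes and in 12.8% of all array probes. GRIA3 P004771, both GRIK1 probes, GRIK2, GRIK3 and GRIK5 carry their symbol only in the oldest of the annotations among the files.

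Each value is a log2 ratio of the sample (Cy5 dye) to a reference RNA of rhesus macaque (Cy3 dye) on the same array, and is compared between arrays for 1 probe, never between probes. The second scale is the sample channel alone, as a quantile-normalised log2 intensity, called Cy5 alone. The arrays fall into 3 sets by the version of the image extraction software (placebo 1 h, placebo 6 h, all of TatNR2B9c), called campaigns here. No slide or scan day was shared between campaigns, and the reference read unequally in them. In Cy3 the probes well above background made up 15.7% to 51.7% on placebo 1 h arrays, 84.3% to 92.5% on placebo 6 h arrays and 51.8% to 99.3% on TatNR2B9c arrays. In Cy5 it was 45.4% to 76.7%, 81.9% to 93.3% and 46.1% to 97.7%, and the SD of the log2 ratios over probes was 0.37 to 1.08, 1.49 to 1.65 and 0.80 to 1.39. Treatment, and time under placebo, therefore cannot be told apart from the campaign. Right against left, and time under TatNR2B9c, stay within a campaign. TatNR2B9c 6 h animals 1 and 2 were on another slide and scan day than the TatNR2B9c 1 h arrays, however. Of single arrays, placebo left 1 h 1 had the narrowest ratios, placebo left 1 h 3 the fewest probes above background in both dyes, and TatNR2B9c left 6 h 1 the most. The 7 neuron markers with a probe, of 8 listed, were all well above background in the Cy5 channel of each array.

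GRIA2, the 3 clustered GRIA3 probes, GRIA4, GRIK1 P012758 and GRIK5 were well above background in Cy5 on all 24 arrays. GRIK2 was so on 23, GRIK4 on 22, GRIA1 on 16, GRIA3 P004771 on 14, GRIK1 P011781 on 9 and GRIK3 on 8. All 13 probes passed the filter used for testing, which asks that all 3 arrays of some group show the probe well above background in Cy5 and was met by 17226 probes. In Cy3, 1 to 4 of the 13 were well above background on placebo 1 h arrays, 9 to 12 on placebo 6 h arrays and 6 to 13 on TatNR2B9c arrays. In these bulk biopsies fewer cells of a type and less RNA per cell cannot be told apart.

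GRIA1, the AMPA subunit that is inserted at synapses in activity-dependent strengthening, had a log2 ratio above 0 on 23 of 24 arrays, several of them near 0. It was well above background on 16 arrays in Cy5 and on 5 in Cy3, so the sign of a ratio near 0 carries little meaning. Its log2 ratios in animals 1, 2 and 3 (the order used throughout) were 0.05, 0.34 and −0.61 in placebo left cortex at 1 h and 0.30, 0.32 and 0.01 on the right. At 6 h they were 1.95, 1.02 and 1.26 on the left and 0.93, 0.45 and 0.83 on the right. Under TatNR2B9c they were 0.04, 0.12 and 0.24 on the left and 0.35, 0.25 and 0.06 on the right at 1 h. The placebo left 6 h values were the highest of the 24 and did not overlap those of any other group. At 6 h the TatNR2B9c values were 0.34, 0.67 and 0.15 on the left and 0.60, 0.48 and 0.24 on the right.

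GRIA2, the calcium-limiting subunit, ranged from −0.14 to 5.36 with a median of 3.92. In placebo cortex at 1 h it was at −0.14, 1.85 and 1.76 on the left and 2.31, 2.85 and 0.53 on the right. At 6 h the placebo values were 5.21, 4.68 and 5.36 on the left and 4.48, 5.02 and 4.97 on the right. TatNR2B9c values were 3.91, 3.80 and 3.32 on the left and 4.14, 3.32 and 3.38 on the right at 1 h. Every placebo 1 h value lay below every other value of this probe, and animal 1 on the left and animal 3 on the right were the lowest. At 6 h under TatNR2B9c it was at 3.68, 4.68 and 4.15 on the left and 4.56, 4.85 and 3.94 on the right. By group mean ± SD (n = 3) the order was placebo left 6 h (5.08 ± 0.36), placebo right 6 h (4.82 ± 0.30), TatNR2B9c right 6 h (4.45 ± 0.46), TatNR2B9c left 6 h (4.17 ± 0.50), TatNR2B9c left 1 h (3.68 ± 0.31), TatNR2B9c right 1 h (3.62 ± 0.46), placebo right 1 h (1.90 ± 1.21) and placebo left 1 h (1.16 ± 1.13). Neighbours in this order overlapped except TatNR2B9c right 1 h and placebo right 1 h. In Cy5 alone the same groups ran only from 13.42 (TatNR2B9c left 6 h) to 14.22 (TatNR2B9c right 1 h), and placebo 1 h was within that range, at 13.66 on the left and 13.44 on the right.

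GRIA3, an X-linked AMPA subunit, gave a similar picture with its 3 clustered probes. P002218 read 0.08, 1.39 and 1.04 in placebo left cortex and 1.5, 1.44 and 0.42 in placebo right cortex at 1 h. It read 5.08, 4.69 and 5.42 on the left and 4.47, 5.35 and 5.28 on the right at 6 h. Every placebo 6 h value of this probe lay above every placebo 1 h value. Under TatNR2B9c it read 1.76, 3.09 and 2.54 on the left and 2.82, 2.44 and 2.43 on the right at 1 h, then 3.54, 5.21 and 3.34 (left) and 4.49, 5.12 and 3.59 (right) at 6 h. Unlike GRIA2, P002218 also differed in Cy5 alone between placebo times, with the arrays at 10.23 to 11.08 at 1 h and at 11.98 to 12.35 at 6 h over both sides. P002371 ran from 0.25 to 4.49 (median 2.67) and P007390 from 0.15 to 4.51 (median 2.03), with placebo 1 h lowest and placebo left 6 h highest by group mean in both.

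The upstream probe GRIA3 P004771 behaved otherwise, with ratios between −0.31 and 0.55 on all arrays and a median of 0.01. Its highest value was in TatNR2B9c left 6 h animal 1, where Cy5 alone read 10.35 against 6.21 to 7.81 on the other 23 arrays. The deviations of the 3 clustered probes from their group means were correlated with each other at r of 0.76 to 0.85 over the 24 arrays, and those of P004771 with theirs at −0.39 to −0.13. The arrays are the shared element of these correlations, which are given as description. That this probe reads a GRIA3 transcript rests on its symbol in the oldest annotation.

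GRIA4, the AMPA subunit most associated with interneurons and fast currents, held the widest range of the set, from −2.85 to 3.36. Its placebo 1 h values were 0.01, 0.30 and −2.85 on the left and 0.11, 0.19 and 0.06 on the right. At 6 h they were 3.36, 2.77 and 2.68 on the left and 1.61, 2.59 and 2.49 on the right. The value of −2.85 came from placebo left 1 h 3, one of the arrays that stood apart, and in Cy5 alone that array read 8.01 against 7.45 and 7.22 in animals 1 and 2. Under TatNR2B9c GRIA4 read 0.79, 1.15 and 1.48 on the left and 1.47, 1.11 and 0.93 on the right at 1 h, then 1.36, 3.09 and 1.98 (left) and 2.37, 3.32 and 2.07 (right) at 6 h. In Cy5 alone the order of the groups was another one, with the TatNR2B9c arrays highest (9.42 to 11.17), placebo 6 h next (8.22 to 9.09) and placebo 1 h lowest (7.07 to 8.01), and with no overlap between these 3.

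Among the kainate subunits that form channels alone, GRIK1 had 2 probes that disagreed. P012758 read 0.04, 1.1 and 0.81 on the left and 1.21, 1.60 and 0.19 on the right in placebo cortex at 1 h, then 4.65, 3.74 and 4.19 (left) and 3.32, 3.74 and 3.79 (right) at 6 h. Under TatNR2B9c it read 0.52, 0.68 and 0.69 on the left and 2.08, 1.14 and 0.84 on the right at 1 h. At 6 h its values were 1.52, 3.26 and 1.19 on the left and 3.48, 2.90 and 1.32 on the right. In Cy5 alone the TatNR2B9c means (8.89 to 9.35) were all below the placebo means (10.25 to 10.60). P011781 stayed between −0.16 and 0.64 and was not well above background on any array of placebo 1 h, TatNR2B9c right 1 h or TatNR2B9c right 6 h. The deviations of the 2 GRIK1 probes correlated at r = 0.20, while P012758 and GRIA3 P007390, which share the 8 bases in capitals above, correlated at 0.95.

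GRIK2, a main kainate subunit of principal neurons, ran from 0.01 to 1.97. In placebo cortex it read 0.06, 0.37 and 0.32 on the left and 0.31, 0.23 and 0.01 on the right at 1 h, then 1.86, 1.63 and 1.66 (left) and 1.38, 1.00 and 1.2 (right) at 6 h. Under TatNR2B9c it read 0.22, 0.40 and 0.38 on the left and 0.64, 1.04 and 0.71 on the right at 1 h, then 0.93, 1.97 and 0.66 (left) and 1.71, 1.89 and 0.86 (right) at 6 h. Animal 2 of TatNR2B9c 6 h was the highest of its group on both sides. GRIK3, the third of these subunits, had ratios of −0.13 to 0.52 and was not well above background on any placebo 1 h, TatNR2B9c 1 h or TatNR2B9c right 6 h array.

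GRIK4 and GRIK5, the tightly binding subunits, were ordered differently on the 2 scales. GRIK4 read 0.00, 0.16 and −0.04 on the left and 0.07, 0.01 and −0.07 on the right in placebo cortex at 1 h, then 1.28, 0.80 and 1.04 (left) and 0.46, 1.39 and 0.95 (right) at 6 h. Under TatNR2B9c it read −0.04, 0.11 and 0.12 on the left and −0.37, −0.05 and −0.49 on the right at 1 h, then 0.01, 0.41 and 0.09 (left) and −0.05, 0.09 and 0.59 (right) at 6 h. Only placebo 6 h stood clearly above the reference. GRIK5 read 0.00, 0.80 and 0.49 on the left and 0.58, 0.72 and 0.10 on the right in placebo cortex at 1 h, then 2.34, 2.30 and 2.49 (left) and 2.24, 2.59 and 2.19 (right) at 6 h. Under TatNR2B9c GRIK5 read 0.73, 1.34 and 0.77 on the left and 0.57, 1.09 and 0.49 on the right at 1 h, then 0.48, 0.97 and 1.03 (left) and 0.88, 0.65 and 1.65 (right) at 6 h. By ratio GRIK5 was thus highest in placebo 6 h, whereas in Cy5 alone the TatNR2B9c arrays were all above every placebo array, at 11.61 to 14.13 against 9.88 to 10.90.

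**Figure D1:**
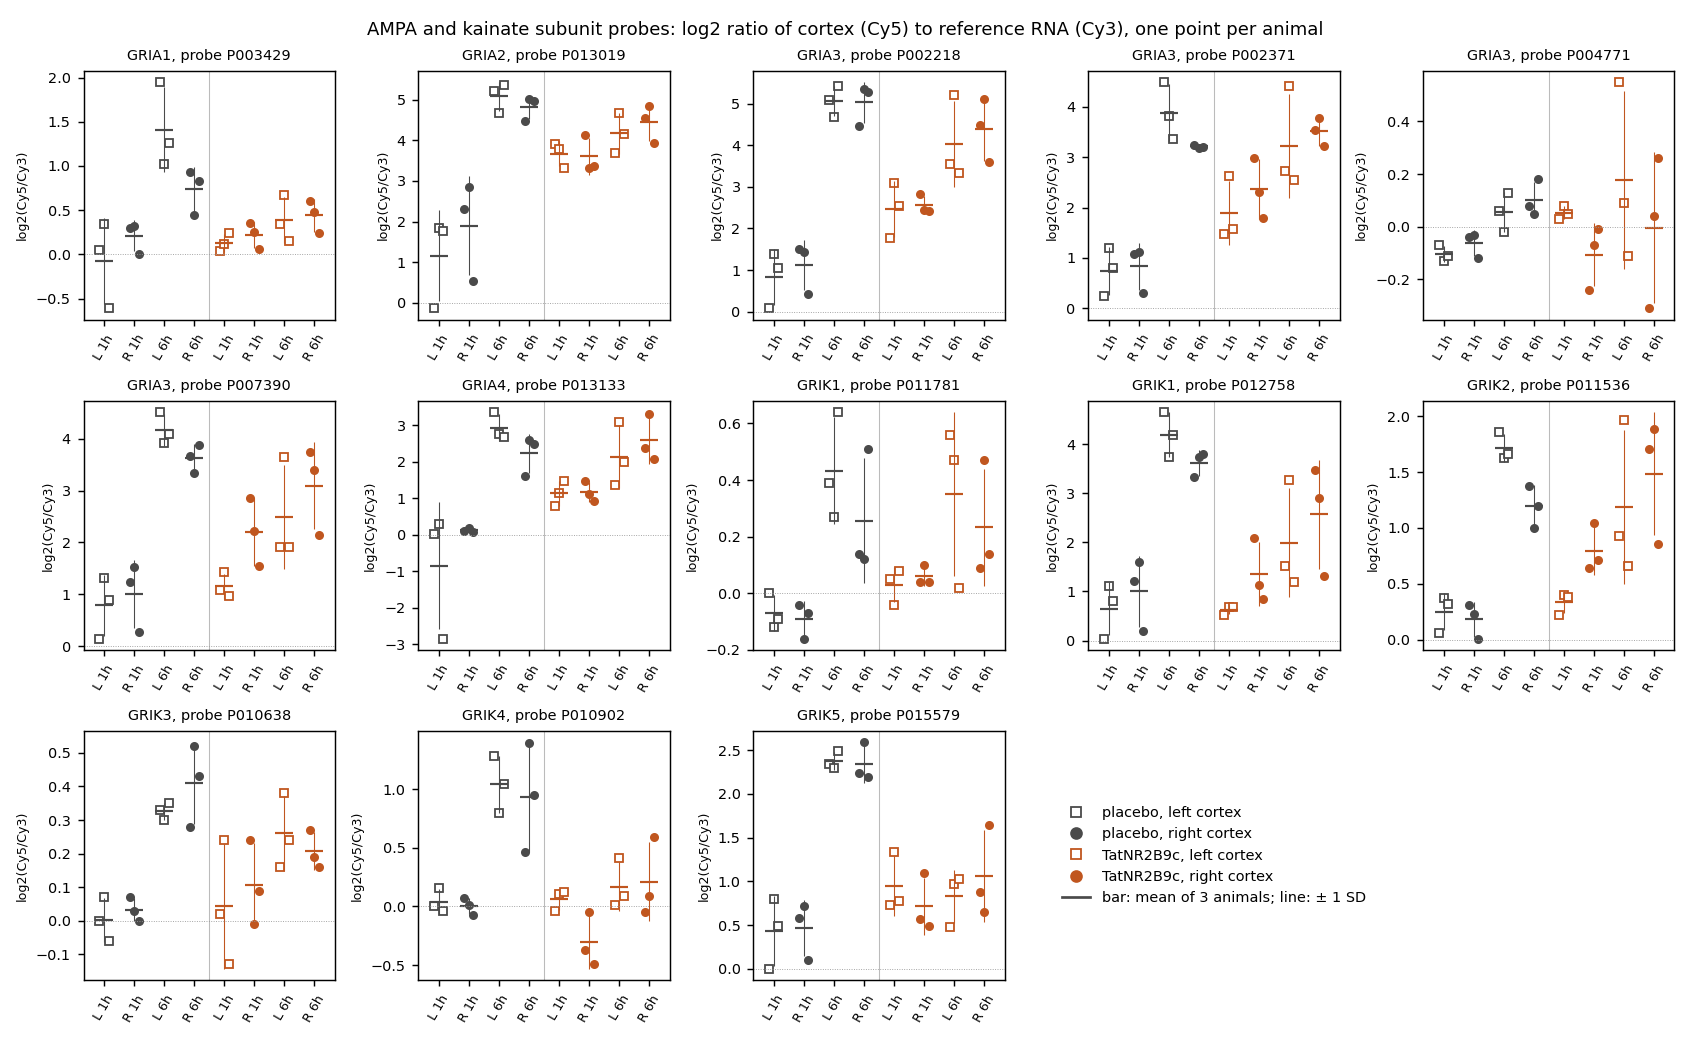
Log2 ratio of sample to reference (vertical axis) for each of the 13 probes, 1 panel a probe, in the 8 groups of treatment, side and time; points are animals and bars are the mean ± 1 SD of 3 animals. In GRIA2, the clustered GRIA3 probes, GRIA4, GRIK1 P012758, GRIK2 and GRIK5 the placebo 6 h points lie above the placebo 1 h points, while GRIA3 P004771, GRIK1 P011781 and GRIK3 stay near 0.

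**Figure D2:**
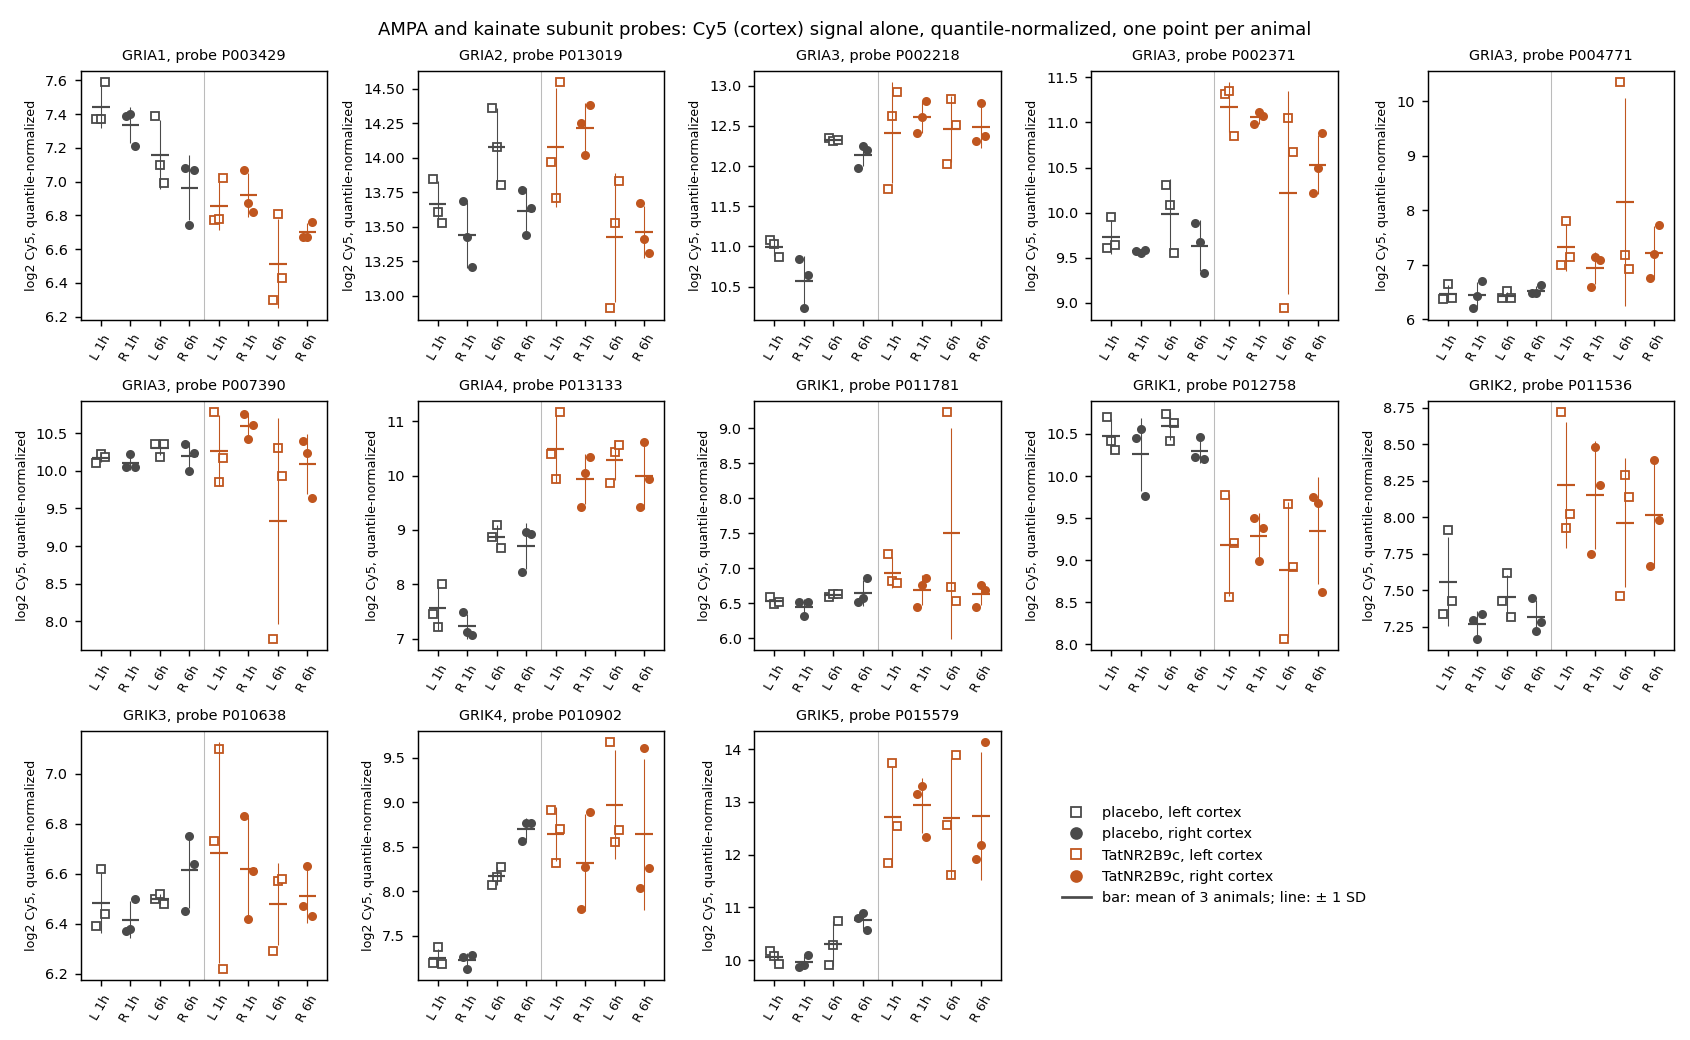
The same probes, groups and animals on the second scale, the quantile-normalised log2 intensity of the sample channel alone (vertical axis), with bars at the mean ± 1 SD of 3 animals. GRIA4, GRIK4 and GRIK5 are higher in the TatNR2B9c groups than in placebo 1 h, GRIK1 P012758 is lower by group mean, and the single high points of GRIA3 P004771 (10.35) and GRIK1 P011781 (9.23) are TatNR2B9c left 6 h animal 1.

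The first comparison, ischemic right against non-ischemic left cortex, asks whether the stroke side itself changed the subunits. No probe of any AMPA or kainate gene passed in placebo at 1 h, placebo at 6 h, TatNR2B9c at 1 h, TatNR2B9c at 6 h or the mean of these 4 sets, at an adjusted p under 0.05 by limma with Benjamini-Hochberg adjustment over all probes tested. Nor did any other of the probes tested, so percent called was 0 in each. With no filter on dim probes 0.00495% of all probes were called in placebo at 6 h, none of them a member. At an unadjusted p under 0.05, 0, 1, 1, 0 and 0 of the 13 probes passed, beside 225, 682, 789, 575 and 661 of all probes. The limma p-values here and below set a difference against the spread among animals within a group. That spread was estimated over all 8 groups of 3 animals together, not from the groups compared alone.

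In the mean of the 4 sets the right-left differences of the 13 probes ran from −0.12 (GRIK4) to 0.34 (GRIA3 P007390), with a median of 0.04 beside 0.00 for all probes and adjusted p from 0.884 to 0.997. Their 95% intervals reached from −0.44 at the lowest to 0.84 at the highest. For GRIA2 the mean difference was 0.17, with an interval from −0.38 to 0.72 and an adjusted p of 0.912. GRIA2 was higher on the right in 7 of 12 animals and lower in 5, with differences from −1.23 to 2.45. The 2.45 came from placebo 1 h animal 1, whose left array had the narrowest ratios, and the −1.23 from placebo 1 h animal 3. In Cy5 alone these 2 pairs differed by −0.16 and −0.32, and the mean difference of GRIA2 was −0.13. GRIK1 P011781 and GRIK4 were lower on the right in 9 of 12 animals each, at mean differences of −0.07 and −0.12.

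The sets had different medians, none of them tested as a list. The median right-left difference of the 13 probes was 0.09 in placebo at 1 h, −0.26 in placebo at 6 h, 0.06 under TatNR2B9c at 1 h and 0.28 under TatNR2B9c at 6 h, beside 0.01, −0.05, −0.03 and 0.06 for all probes. The medians of the 13 in Cy5 alone were −0.11, −0.14, −0.06 and 0.04, so the sign at 1 h turned in both treatments. Animals within a set differed in direction except in placebo at 6 h, where animal 2 showed little difference. The right was higher in 12 of 13 probes in placebo 1 h animal 1 (median 0.25) and 4 of 13 in animal 3 (median −0.31). Under TatNR2B9c at 6 h, 10, 2 and 11 of 13 probes were higher on the right in animals 1, 2 and 3. In placebo 6 h animals 1, 2 and 3, whose sides were on different slides, 1, 6 and 2 of 13 were higher on the right. The medians were −0.73, −0.00 and −0.18. In animals 1 and 3 the left array was of scan day 2 and the right array of scan day 3. Both arrays of animal 2 were of scan day 3. Side therefore cannot be told apart from scan day in animals 1 and 3. Neuron markers had mean right-left differences by ratio of 1.31, 0.37 and −0.93 in placebo 1 h animals 1, 2 and 3. In Cy5 alone these were −0.11, −0.41 and 0.06, so the sign turned in each animal. The part of the neuron markers in the subunit differences was not tested.

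The largest single right-left estimates were those of GRIA3 P007390 under TatNR2B9c at 1 h, 1.06 with an SE of 0.48 (2.08-fold, adjusted p = 0.923), and of GRIA4 in placebo at 1 h, 0.97 with an SE of 0.60 (adjusted p = 1). The first rests on 2.86, 2.22 and 1.55 against 1.08, 1.43 and 0.96, which do not overlap. In Cy5 alone it was 0.33, and by ratio the other GRIA3 probes P002218, P002371 and P004771 differed by 0.10, 0.47 and −0.16. The GRIA4 estimate rests on the array with GRIA4 at −2.85 and was −0.34 in Cy5 alone. GRIA1 in placebo at 6 h had a right-left estimate of −0.67 with an interval from −1.17 to −0.18, and its groups did not overlap, but the adjusted p was 1.

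Since the share of GRIA2 among AMPA subunits bears on calcium entry, its right-left difference was set against those of GRIA1, GRIA3 and GRIA4 within each animal, a comparison chosen after the data were seen. The mean of GRIA2 minus GRIA1 was 0.24 ± 0.98 (SD, n = 12 animals), with 8 of 12 animals above 0 (exact sign-flip permutation p = 0.427, two-sided). For GRIA2 minus GRIA3 it was −0.01 ± 0.57, with 5 of 12 above 0 (exact permutation p = 0.967), and for GRIA2 minus GRIA4 −0.01 ± 1.54, with 5 of 12 above 0 (exact permutation p = 0.985). The adjusted p over the 3 comparisons was 0.985 for each, and the smallest p that 12 animals allow is 0.000488. The means in Cy5 alone were −0.11, −0.03 and 0.22, with adjusted exact permutation p of 0.365, 0.772 and 0.365.

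**Figure D3:**
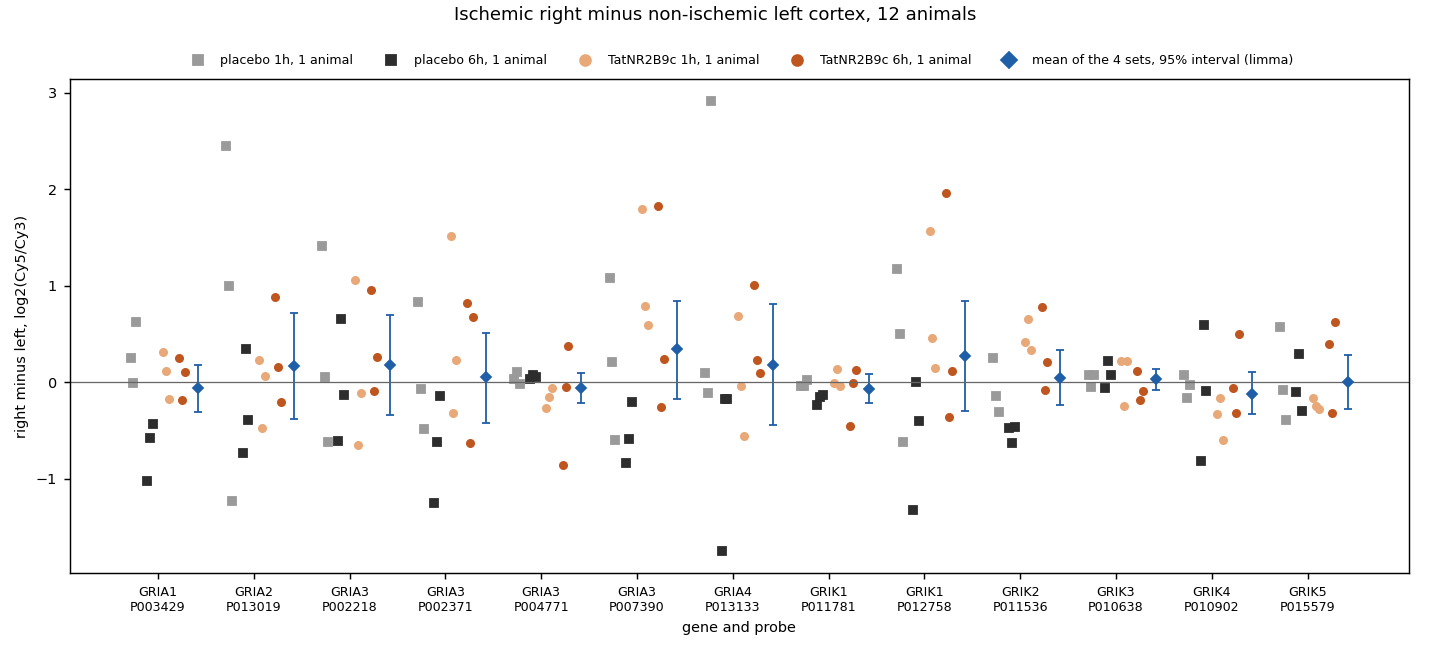
Right minus left difference in log2 ratio (vertical axis) for each of the 13 probes (horizontal axis). Points are the 12 animals by set, and the blue diamond with its line is the mean of the 4 sets with the 95% interval. The intervals of all 13 probes include 0, and the 12 animals lie on both sides of 0 for every probe.

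TatNR2B9c was then compared with placebo in each side and time, where the campaign differs together with the treatment. In right cortex at 1 h no member probe passed, beside 1.58% of all probes (0.372% higher and 1.21% lower). The estimates ran from −0.30 (GRIK4) to 1.72 (GRIA2) with a median of 0.35, against 0.02 for all probes, 5 of 13 were at an unadjusted p under 0.05, and the lowest adjusted p was 0.104 (GRIA3 P002371). The Cy5 scale called 7 of 13 higher and 0 lower, beside 7.91% and 8.91% of all probes. These were GRIA2 (0.77), GRIA3 P002218 (2.04) and P002371 (1.49), GRIA4 (2.72), GRIK2 (0.88), GRIK4 (1.1) and GRIK5 (2.98). With median centring in place of loess, 5 were called higher and 3 lower, with 67% of all probes called.

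In right cortex at 6 h GRIK5 was the 1 member probe that passed, lower under TatNR2B9c by ratio but higher in Cy5 alone. The ratios of 0.88, 0.65 and 1.65 against 2.24, 2.59 and 2.19 in placebo did not overlap and differed by −1.28 with an SE of 0.27 (2.43-fold lower, adjusted p = 0.0113). In Cy5 alone the difference was 1.99 (adjusted p = 0.0309), from 11.91, 12.18 and 14.13 against 10.80, 10.90 and 10.57. Of all probes 4.3% were called, 2.65% higher and 1.65% lower. GRIK4 had the next largest statistic, −0.73 with an SE of 0.20 (adjusted p = 0.0506), and its values overlapped. The GRIK5 call was lost without placebo right 6 h animal 2 (−1.15, adjusted p = 0.0515) or TatNR2B9c right 6 h animal 2 (−1.07, adjusted p = 0.0549). It was also lost with arrays scaled to equal spread (−0.50, adjusted p = 1). The same held with the extraction software's own ratio (−1.65, adjusted p = 0.0982) and when only the groups compared were fitted (adjusted p = 0.0575). In Cy5 alone 2 of 13 were called, GRIA4 and GRIK5, both higher, beside 3.01% of all probes higher and 4.8% lower.

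In left cortex at 1 h GRIA2 was the 1 probe that passed, higher under TatNR2B9c by ratio, although median centring turned the sign. The values of 3.91, 3.80 and 3.32 against −0.14, 1.85 and 1.76 in placebo did not overlap and differed by 2.52 with an SE of 0.52 (5.74-fold, adjusted p = 0.0289). Of all probes 0.865% were called, 0.824% higher and 0.0406% lower. In Cy5 alone the difference was 0.42 (adjusted p = 0.234), and with median centring it was −1.77 (adjusted p = 0.0055), where 5 of 13 probes were called higher and 5 lower and 77.1% of all probes were called. The call was lost without placebo left 1 h animal 1 (1.87, adjusted p = 0.134), TatNR2B9c left 1 h animal 1 (2.40, adjusted p = 0.156) or animal 2 (2.46, adjusted p = 0.144). It was also lost when only the groups compared were fitted (adjusted p = 0.359), with scan day as a random block (2.56, adjusted p = 0.0797) and without the 3 arrays with the fewest Cy3 probes above background (1.83, adjusted p = 0.151).

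By Cy5 alone, left cortex at 1 h had 5 member probes higher and 2 lower, beside 9.43% and 11.8% of all probes. GRIA3 P002218 (1.42), P002371 (1.44), GRIA4 (2.94), GRIK4 (1.39) and GRIK5 (2.66) were higher, and GRIA1 (−0.58) and GRIK1 P012758 (−1.30) were lower. None of these 7 passed by ratio. For GRIA1 the Cy5 signal cleared the background limit in only 1 of 3 TatNR2B9c and 2 of 3 placebo animals there, so the size of its difference is uncertain. Of the neuron markers 2 of 7 were called higher by ratio in left cortex at 1 h (median 1.47), and 2 higher and 1 lower in Cy5 alone (median −0.53), while the median of the 13 receptor probes was 0.21 by ratio and 0.66 in Cy5 alone.

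In left cortex at 6 h, by ratio, 5 of 13 probes passed, all lower under TatNR2B9c, of which GRIA1, GRIA3 P007390 and GRIK1 P012758 were also below placebo in Cy5 alone while GRIK4 and GRIK5 were above it. The share of 5 of 13 stands beside 24.6% of all probes called, 10.8% higher and 13.8% lower. The median of the 13 was −0.87 against −0.07 for all probes. With the arrays scaled to equal spread the median of the 13 was 0.02 and no member probe passed.

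GRIK1 P012758 and GRIA1 passed in left cortex at 6 h on both scales and in the same direction. For GRIK1 P012758, 1.52, 3.26 and 1.19 lay below the placebo values of 4.65, 3.74 and 4.19, a difference of −2.20 with an SE of 0.54 (4.61-fold lower, adjusted p = 0.00786), and −1.71 in Cy5 alone (adjusted p = 0.00524). The second GRIK1 probe, P011781, differed by −0.08 (adjusted p = 0.707). For GRIA1, 0.34, 0.67 and 0.15 lay below 1.95, 1.02 and 1.26. The difference was −1.02 with an SE of 0.24 (adjusted p = 0.00505), and −0.65 in Cy5 alone (adjusted p = 0.0151). Both were not called with the arrays scaled to equal spread, nor with the scanner software's own ratio, nor when only the groups compared were fitted. GRIA1 met the filter through placebo groups only. Its Cy5 signal cleared the background limit in all 3 placebo left 6 h animals but in 2 of 3 under TatNR2B9c. The third has only an upper limit, so no fold is given for GRIA1 and the size of its difference is uncertain.

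GRIA3 P007390 was lower by ratio, −1.68 with an SE of 0.48 (3.21-fold, adjusted p = 0.0175), and at −0.96 in Cy5 alone (adjusted p = 0.112), where TatNR2B9c animal 1 read 7.77 against 10.31 and 9.93 in animals 2 and 3. Its neighbours P002218 (−1.03, adjusted p = 0.135) and P002371 (−0.66, adjusted p = 0.298) did not pass, and read 0.13 and 0.24 in Cy5 alone. The P007390 call was lost without placebo left 6 h animal 1 (−1.51, adjusted p = 0.0706), TatNR2B9c left 6 h animal 1 (−1.39, adjusted p = 0.0923) or animal 3 (−1.39, adjusted p = 0.0825). GRIK4 differed by −0.87 by ratio (adjusted p = 0.00573) and by 0.81 in Cy5 alone (adjusted p = 0.104). GRIK5 differed by −1.55 by ratio (adjusted p = 0.000938) and by 2.38 in Cy5 alone (adjusted p = 0.00836), so both scales passed in opposite directions. In Cy5 alone 3 of 13 probes were called higher (GRIA3 P004771, GRIA4 and GRIK5) and 2 lower, beside 5.07% and 11.3% of all probes. Without TatNR2B9c left 6 h animal 2, 8 of 13 probes were lower by ratio, with 35.3% of all probes called.

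Markers of several cell types were called by ratio in the same comparison in left cortex at 6 h, beside 13.8% of all probes lower and 10.8% higher. Of the neuron markers 0 of 7 passed (median −0.60), of excitatory neuron markers 3 of 6 were lower (median −1.35), of inhibitory neuron markers 1 of 6 was lower (median −0.74) and of oligodendrocyte markers 2 of 6 were lower (median −1.21). The oligodendrocyte precursor list had 1 of 2 lower (median −1.10). Of the blood markers 2 of 5 were higher (median 1.99), of meninges and choroid plexus markers 2 of 5 (median 1.25), of astrocyte markers 1 of 6 (median 0.60) and of endothelial and mural markers 1 of 6 (median 0.39). In Cy5 alone no oligodendrocyte and no meninges or choroid plexus marker was called (medians −0.87 and −0.02). Excitatory neuron markers had 1 higher and 2 lower (median −0.66), and inhibitory neuron markers 1 lower (median 0.03). Higher in Cy5 alone were 2 blood markers (median 2.31), 2 astrocyte markers (median 0.52), 1 endothelial or mural marker and 1 neuron marker, and 1 oligodendrocyte precursor marker was lower. The summed level of the blood markers, as their mean log2 ratio, ran from −0.65 to 2.00 in TatNR2B9c left 6 h and from −2.35 to −1.01 in placebo left 6 h, and that of the excitatory neuron markers from 1.63 to 3.03 and from 3.28 to 3.76. Their part in the subunit differences was not tested.

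**Figure D4:**
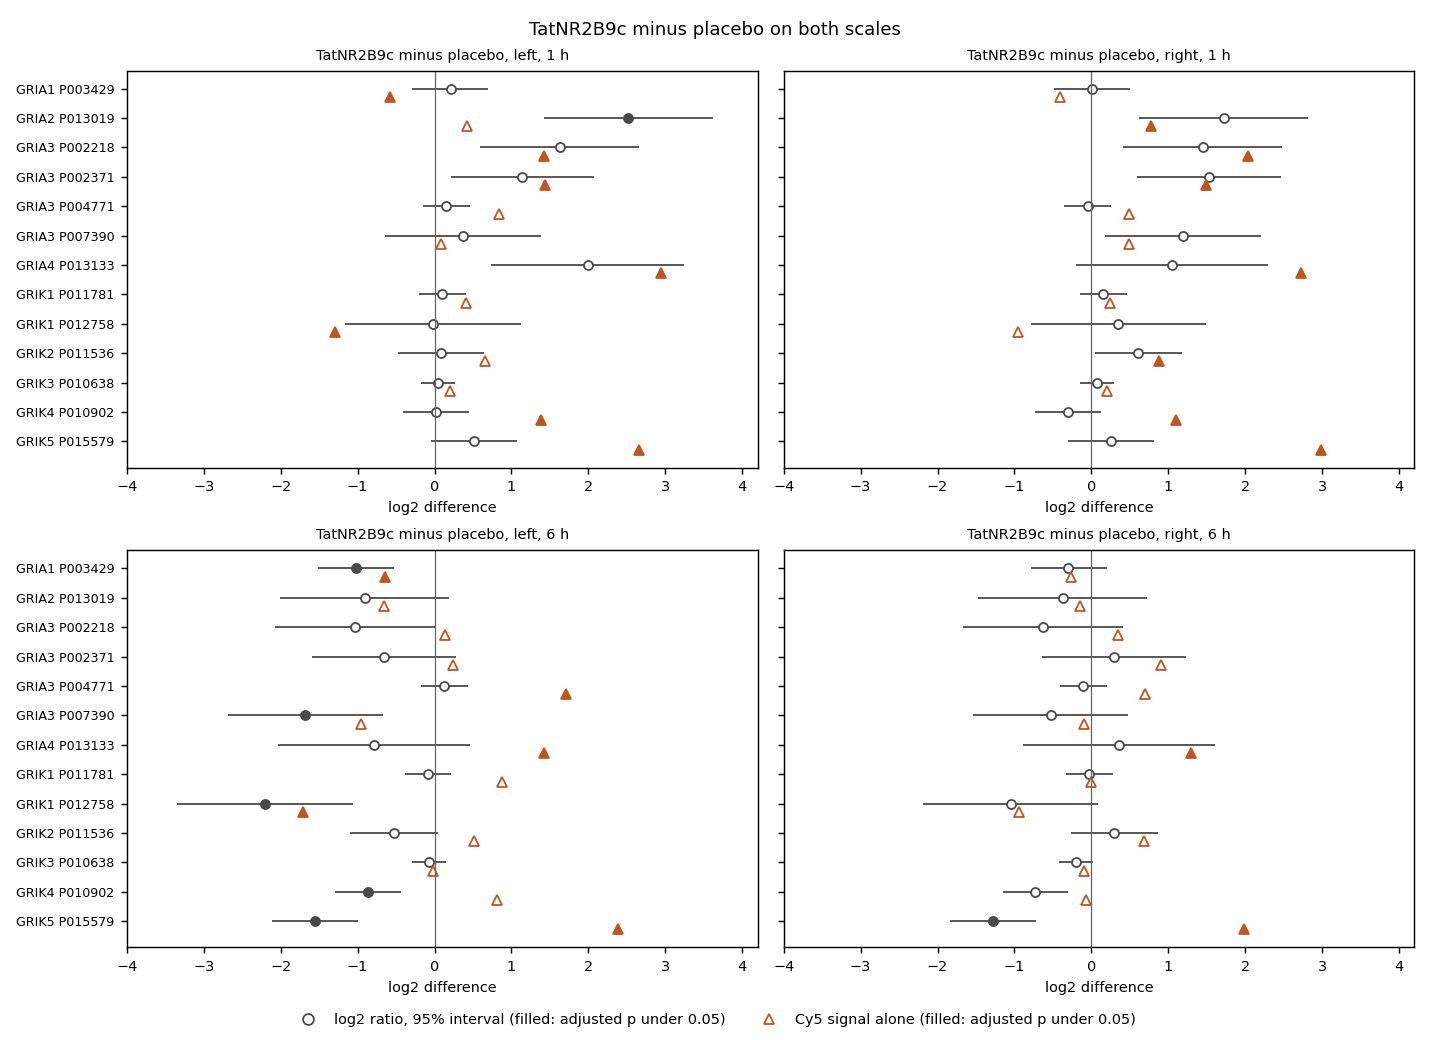
TatNR2B9c minus placebo (horizontal axis, log2) for the 13 probes in 4 panels of side and time; circles with 95% intervals are the log2 ratio, triangles are Cy5 alone, and filled symbols have an adjusted p under 0.05. GRIK5 lies below 0 by ratio and above 0 in Cy5 alone at 6 h on both sides, and GRIK1 P012758 and GRIA1 lie below 0 on both scales in left cortex at 6 h.

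Time was compared as 6 h minus 1 h within treatment and side. In placebo cortex most of the probes read higher at 6 h by ratio, a direction that turned under another scaling, among the probes called, for GRIA2 on both sides and for GRIA1, GRIK2 and GRIK5 on the left. Of the probes not called, GRIA1 on the right and GRIA3 P004771 on the left turned in Cy5 alone (0.53 against −0.37, and 0.16 against −0.04). The direction cannot be told apart from the campaign that changed with the time. On the right 10 of 13 probes were called higher and 0 lower, with a median of 1.87 against 0.05 for all probes, beside 40.9% of all probes called, 21.6% higher and 19.3% lower. On the left 12 of 13 were called higher and 0 lower, with a median of 1.94 against 0.11, beside 54.2% of all probes called, 31% higher and 23.2% lower. On Cy5 alone 3 of 13 were higher on the right (median 0.18) and 2 of 13 on the left (median 0.13), with 12.7% and 7.23% of all probes higher and 11.6% and 6.98% lower.

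The probes that passed on both scales in placebo were GRIA3 P002218 and GRIA4 on both sides and GRIK4 on the right. GRIA3 P002218 differed by 3.92 on the right (15.1-fold, adjusted p = 2.05e-05) and 4.22 on the left (18.7-fold, adjusted p = 6.05e-06), and by 1.57 and 1.33 in Cy5 alone. GRIA4 differed by 2.11 (adjusted p = 0.0089) and 3.78 (adjusted p = 5.73e-05), and by 1.48 and 1.32 in Cy5 alone. The 3.78 on the left includes the value of −2.85 from placebo left 1 h 3. Without 1 array at a time it ran from 2.78 to 4.35 and stayed called. GRIK4 differed by 0.93 on the right (adjusted p = 0.00151) and by 1.48 in Cy5 alone (adjusted p = 0.00406). Their Cy5 differences were smaller than those of the ratio for GRIA3 P002218 and GRIA4.

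GRIA2 had one of the larger placebo time differences by ratio, 2.93 on the right (7.60-fold, adjusted p = 0.000314) and 3.92 on the left (15.2-fold, adjusted p = 1.44e-05), but 0.18 and 0.42 in Cy5 alone, and −0.18 and −0.08 with median centring. With arrays scaled to equal spread it was −0.10 on the right. GRIA3 P002371 and P007390 and GRIK1 P012758 differed by 2.37 to 3.55 over both sides by ratio and by 0.04 to 0.25 in Cy5 alone. GRIK5 differed by 1.87 and 1.94 by ratio, right and left, and on the left by −0.42 with median centring. GRIA1 and GRIK2 on the left differed by 1.48 and 1.47 by ratio and by −0.29 and −0.11 in Cy5 alone. With arrays scaled to equal spread 0 of 13 passed on the right and 2 on the left, beside 6.23% and 13% of all probes.

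GRIK3 and GRIK1 P011781 were well above background on all arrays of the placebo 6 h groups and of no other group, and on no placebo 1 h array. They therefore entered the test through the groups where they read high, and their 3 calls (GRIK3 on both sides, GRIK1 P011781 on the left) are no support for a change with time. Without these 2 probes, 9 of 11 were called higher on the right and 10 of 11 on the left, beside 23.8% and 33.2% of all probes that passed the filter through another group than placebo 6 h. In Cy5 alone the group means of GRIK3 were 6.42 at 1 h and 6.61 at 6 h on the right, and 6.48 and 6.50 on the left. No fold is given for either probe, since at 1 h the array shows only that they were not well above background.

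Under TatNR2B9c, where both times lie in 1 campaign, no probe passed between 6 h and 1 h on either side, among the 13 or among all tested, so percent called was 0. The medians of the 13 were 0.69 on the right and 0.49 on the left, against 0.04 and −0.01 for all probes. The direction turned on the second scale, where the medians of the 13 were −0.12 and −0.20, with 4 and 5 of 13 probes of the same sign as by ratio, and with arrays scaled to equal spread the medians were 0.13 and 0.03. At an unadjusted p under 0.05, 6 of 13 passed on each side, beside 3327 and 2804 of all probes. GRIA3 P002218 had the largest estimate on both sides, 1.84 on the right (interval 0.80 to 2.88, adjusted p = 0.0889) and 1.56 on the left (adjusted p = 0.189), but its Cy5 differences were −0.12 and 0.04. Without both arrays of the third TatNR2B9c 6 h animal, a setting chosen after the data were seen, 3 of 13 passed on the right and 5 on the left, all higher, beside 4.48% and 6.77% of all probes called. The 6 h arrays left in that setting were all on slide 10 and scan day 5, and the 1 h arrays on slides 7 to 9 and scan day 4. Time therefore cannot be told apart from slide and scan day in it. On the 1 slide that held both times, 13 of 13 probes were higher at 6 h on the right (median 0.56) and 9 of 13 on the left (median 0.37), with 1 array a group.

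**Figure D5:**
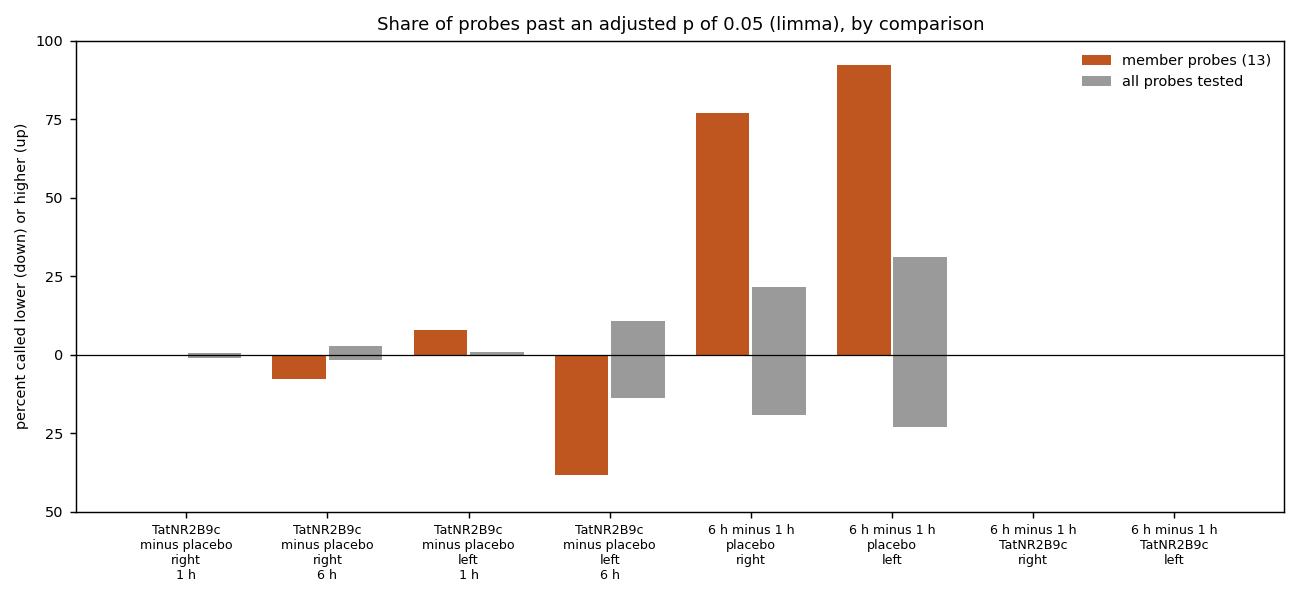
Percent of probes called higher (above 0) or lower (below 0) at an adjusted p under 0.05, for the 13 receptor probes and for all probes tested, in the 4 treatment and 4 time comparisons. The widest gap between the receptor probes and all probes is in the 2 placebo time comparisons, where 10 and 12 of 13 were called higher beside 21.6% and 31% of all probes. These counts include GRIK3 and GRIK1 P011781, which passed the filter only through placebo 6 h. Without these 2 probes 9 and 10 of 11 were called higher, beside 23.8% and 33.2% of all probes that passed the filter through another group.

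Whether the right-left difference itself depended on time or treatment was tested as an interaction. No member probe and no other tested probe passed in the 3 interactions, so percent called was 0. For 6 h minus 1 h the median of the 13 was −0.31 against 0.01 for all probes, with 1 of 13 and 285 of all probes at an unadjusted p under 0.05. For TatNR2B9c minus placebo it was −0.18 at 1 h (0 of 13 and 296 unadjusted) and 0.53 at 6 h (2 of 13 and 760 unadjusted), against −0.04 and 0.13 for all probes. The 2 at 6 h were GRIA1, 0.73 with an interval from 0.03 to 1.43, and GRIK2, 0.83 with an interval from 0.03 to 1.63, both at an adjusted p of 0.922.

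The proteins that traffic, anchor and edit these receptors were read in 26 tested genes from 6 lists. The AMPA auxiliary list (9 of 18 genes tested) held auxiliary subunits and also other partners of AMPA receptors, such as CPT1C. The other lists were kainate auxiliary subunits (2 of 2), scaffold and trafficking proteins (6 of 11) and extracellular synapse organisers (4 of 6). The last were the RNA editing enzyme family (3 of 3) and delta receptors (2 of 3). By ratio none passed in any right-left comparison, nor under TatNR2B9c against placebo at 1 h on either side. In Cy5 alone 3 were higher and 1 lower at 1 h on the right, and 2 higher and 3 lower on the left. In the mean right-left difference the 3 largest were LRRTM2, a synaptic adhesion protein (0.37), CPT1C, a partner of GRIA1 in the endoplasmic reticulum (0.37), and CACNG3, an AMPA auxiliary subunit (0.34), each at an adjusted p of 0.884.

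At 6 h on the right GSG1L, an AMPA auxiliary subunit, was lower under TatNR2B9c on both scales (−1.04, adjusted p = 0.00432, and −0.94 in Cy5 alone, adjusted p = 0.0127). ADARB2, a brain member of the RNA editing enzyme family without known editing activity, was higher on both scales (0.64, adjusted p = 0.00705, and 0.80, adjusted p = 0.0229). NPTXR, the neuronal pentraxin receptor that clusters AMPA receptors, was at −1.74 (adjusted p = 0.0498) and at −0.18 in Cy5 alone, with a probe that the newest annotation names CBX6. At 6 h on the left 11 of 26 were lower and 1 higher by ratio, beside 13.8% and 10.8% of all probes, and 3 were lower and 2 higher in Cy5 alone. By ratio 5 of 9 genes of the AMPA auxiliary list, 2 of 6 scaffold proteins, 3 of 4 organisers and 1 of 2 delta receptors were lower. Of the 3 genes of the editing enzyme family, only the one without known editing activity passed, and it was higher. The 3 largest were the delta receptor GRID1 (−2.19, adjusted p = 0.0041, −1.14 in Cy5 alone), NPTXR (−1.81, adjusted p = 0.0126, −0.36 in Cy5 alone) and LRRTM2 (−1.72, adjusted p = 0.0294, −1.06 in Cy5 alone).

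In placebo cortex most of the partners were higher at 6 h by ratio. In Cy5 alone the AMPA auxiliary list had medians of 0.39 on the right and 0.18 on the left. The kainate auxiliary subunits had medians of −0.76 and −0.89 there. At 6 h 17 of 26 were called higher on the right and 20 higher and 1 lower on the left, beside 21.6% and 31% of all probes higher. In Cy5 alone 4 were higher and 3 lower on the right, and 3 higher and 3 lower on the left. The calls by ratio included 7 and 8 of 9 genes of the AMPA auxiliary list, and both kainate auxiliary subunits on either side. CACNG3 had the largest difference, 3.19 on the right and 3.91 on the left, then LRRTM2 (2.75 and 3.43) and GRID1 (2.66 and 3.06). In Cy5 alone CACNG3 was at −0.28 and −0.47, LRRTM2 at −0.17 and −0.53 and GRID1 at 0.10 and −0.39. Neuron markers were called higher in 7 of 7 on both sides by ratio, with medians of 2.56 on the right and 2.77 on the left, and stood at 0.34 and 0.24 in Cy5 alone. Oligodendrocyte markers were called higher in 3 and 5 of 6, right and left, excitatory neuron markers in 5 and 6 of 6, and inhibitory neuron markers in 3 and 5 of 6. Of the blood markers 2 of 5 were lower on each side (medians −1.29 and −1.44), and of the meninges and choroid plexus markers 3 of 5 (medians −1.41 and −1.72). The mean ratio of the neuron markers ran from 0.30 to 2.15 over the placebo 1 h arrays and from 3.67 to 4.11 over the placebo 6 h arrays, and the part of these lists in the subunit differences was not tested.

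Among the members themselves, the deviations from the group means over the 24 arrays were most alike for GRIA3 and GRIK1 (r = 0.82), then GRIK1 and GRIK2 (0.76), GRIA2 and GRIK1 (0.73), and GRIA2 and GRIA3 (0.72). GRIA2 and GRIA4 were close to unrelated on this measure (0.05), and GRIK5 was most like GRIK4 (0.61). Each gene was read here by its brightest probe, and the values share their arrays, so properties of an array enter both. Of 14788 probes with another symbol, those most like GRIA2 were CDK5R1 (0.98), FGF12 (0.97) and GABBR2 (0.97), and those most like GRIA4 were STK32C (0.96), CYLD (0.95) and UXS1 (0.94). GRIA1 was most like GNTIVH (0.92), FLJ44796 (0.91) and ZNF514 (0.90), and GRIA3 like CLCN6, MAST1 and PCDH7 (0.94 each).

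For the kainate genes the closest were KIAA1377 (0.97), KCNJ9 (0.96) and CSMD3 (0.96) to GRIK1, and RASA2 (0.95), THAP6 (0.95) and WDR82P1 (0.94) to GRIK2. GRIK3, dim on most arrays, reached no more than 0.80 (MARCH5), then 0.78 (ZMAT4) and 0.77 (KIAA1972). GRIK4 was most like LPCAT4 and MRPL2 (0.89 each), and GRIK5 like PPP5C (0.91), RPP25 (0.89) and GRLF1 (0.86).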

How the data were processed

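RNA of 24 cortical biopsies was hybridised to 2-colour Agilent arrays of a rhesus macaque design, 1 array a sample, with the sample in Cy5 and reference RNA in Cy3 and no dye swap, per the labels. A rhesus probe may underread a cynomolgus transcript that differs from it. Per the file headers, the placebo 1 h images were extracted with version 9.5.3.1 of Agilent's Feature Extraction software, those of placebo 6 h with version 10.5.1.1 and those of TatNR2B9c with version 10.7.3.1, the version given in the submitters' processing notes. The deposited intensities are spot means and local background medians on a linear scale, not normalised, per the file headers. Per the file headers the log10 ratio they hold sets the processed Cy5 signal against the processed Cy3 signal. On 24 of 24 arrays the log10 ratios that the authors deposited as a series matrix differed from it by 0.005 at most. Deposited flags (0 or 1) say whether a spot is well above background, saturated or not uniform, per the file headers.

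Backgrounds were corrected with normexp (offset 50), ratios normalised by loess within arrays, and the 2 spots of a probe averaged (limma 3.58.1, R 4.3.3; plots with matplotlib 3.10.9). Control spots and spots marked not uniform were left out. Of 20217 probes, 17226 passed the filter (all 3 arrays of some group well above background in Cy5), and 17224 of them were tested in every comparison. One limma fit (lmFit and eBayes, two-sided) with 1 mean per group over all 24 arrays gave 16 comparisons. Adjusted p-values are Benjamini-Hochberg values over all probes tested, and 0.05 was the threshold. The scripts were tested on simulated data with known changes. Gene names are those of the files, and no genome was used here.

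All probes of the 9 genes are named. Of the partner genes, up to 3 with the largest passing difference in each comparison are named, plus the 3 largest in the mean right-left difference, and the 3 most similar probes of each member, of which 1 is not reported here. The members and lists were chosen with earlier results of these data known. Same-numbered right and left samples of a treatment and time were read as 1 animal from the labels; the deviations of the 2 sides from their group means correlated at over 0.1 in 6 of 12 animals (range −0.71 to 0.68, median 0.08). Alternatives to background correction, normalisation, filter, blocks and arrays used are in the closing section.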

Additional observations from a re-analysis of the deposited data

How the results depend on the processing

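The number of receptor probes called was recomputed under 16 other settings and without each of the 24 arrays in turn. The share of all probes called also moved with the setting and is not given for each here. The counts therefore show how far the processing moves them and are not results about the receptors. The number of receptor probes called stayed at 0 in all right-left comparisons and interactions. In the other comparisons it was 0 (right) and 1 (left) for TatNR2B9c against placebo at 1 h, 1 and 5 at 6 h, 10 and 12 for time under placebo, and 0 and 0 for time under TatNR2B9c. No background subtraction gave 2 at right 6 h and 2 at left 1 h. The extraction software's ratio, and the series matrix that holds it, gave 0 at right 6 h, 6 at left 1 h and 0 at left 6 h. They gave 5 for time under placebo on the right. Median centring gave 8 at right 1 h, 2 at right 6 h and 10 at left 1 h. Arrays scaled to equal spread gave 0 at right 6 h, 4 at left 1 h, 0 at left 6 h, and 0 on the right and 2 on the left for time under placebo. Cy5 alone gave 7 at right 1 h, 2 at right 6 h, 7 at left 1 h, and 3 and 2 for time under placebo. Fitting only the groups compared gave 0 at right 6 h, left 1 h and left 6 h. Scan day as a random block gave 0 at left 1 h, as did leaving out the 3 arrays with the fewest Cy3 probes above background. Array weights gave 5 at right 1 h, 2 at right 6 h, 2 at left 1 h and 6 for time under TatNR2B9c on the right. Leaving out both arrays of the third TatNR2B9c 6 h animal, chosen after the data were seen, gave 2 at right 6 h, and 3 on the right and 5 on the left for time under TatNR2B9c. In that setting time under TatNR2B9c cannot be told apart from slide and scan day. Without 1 array at a time the range was 0 to 1 at right 1 h, 0 to 2 at right 6 h, 0 to 2 at left 1 h, 4 to 8 at left 6 h, 10 to 11 and 11 to 12 for time under placebo, and 0 to 1 on each side for time under TatNR2B9c. No filter on dim probes, 1 probe a gene, and slide as a random block moved no count past 1.5 times. The replicate block, with animal as a random block (correlation 0.05) or as a fixed block for the right-left comparisons and interactions, changed no such count either, and the right-left counts stayed at 0 with it.

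Called values that changed sign were these: with median centring GRIA2 at left 1 h (−1.77) and for time under placebo (−0.18 right, −0.08 left) and GRIK5 for time under placebo on the left (−0.42), with arrays scaled to equal spread GRIA2 for time under placebo on the right (−0.10), and in Cy5 alone GRIK5 at right 6 h (1.99) and left 6 h (2.38), GRIK4 at left 6 h (0.81), and GRIA1 (−0.29) and GRIK2 (−0.11) for time under placebo on the left. The cause was not tested. GRIK1 P011781 and GRIK3, not well above background on most arrays, have only an upper limit in several groups, and 3 animals a group limit the precision of every difference.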
